A study of Schmidtea mediterranea with 48 samples.

Results

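Planarians are flatworms that replace any lost body region, and their muscle carries positional information: muscle cells express the signalling genes that tell neighbouring tissue where it lies along the body, with specialised muscle cells, the poles, at the head and tail tips. *nr4A* encodes a nuclear receptor of the NR4A family, transcription factors that bind DNA and in vertebrates are known as orphan receptors. It is expressed in planarian muscle, and the experiment asked which genes change at both ends of the body when it is inhibited.

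The contigs described here are the 100 whose level was lower in *nr4A(RNAi)* tails while, averaged over the experiment, it was close to the control level in *nr4A(RNAi)* heads. They were chosen from measured values. For each tissue the difference between the mean log2(CPM + 0.5) of the *nr4A(RNAi)* and of the control libraries was taken in each week and averaged over the 4 weeks, CPM being the usual scaling of counts to library size. Of 26401 contigs counted in both tissues, 11860 had a mean control level of at least 5 CPM in both, and 5972 of these had a mean head difference between -0.1 and 0.1, after 3 contigs had been left out by number. The 100 with the lowest mean tail difference were taken, which is 1.67% of the 5972. The choice fixes a low tail difference and a head difference near 0, so both are given as descriptions, and the counts of calls in these same contrasts support nothing about the contigs.

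Asexual animals of the CIW4 strain of *Schmidtea mediterranea* were given double-stranded RNA of either *nr4A* or the *C. elegans* gene *unc-22*, which served as control. After 2, 3, 4 or 5 weeks, and starved for 7 days, they were cut just behind the eyes for head pieces and between pharynx and tail tip, nearer the tip, for tail pieces. Each of the 48 libraries came from 6 pooled animals, with 3 libraries for each tissue, week and RNAi group, so the spread between libraries is that between pools. Both RNAi groups are whole animals of 1 strain, and the double-stranded RNA was not restricted to a cell type.

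The head libraries held 13800452 to 27490960 counts and the tail libraries 13395084 to 42917781. The sample descriptions begin with 1 prefix for all heads and another for all tails. What the prefix marks is not stated, and it cannot be told apart from the tissue. *nr4A* itself (dd_12229) was at 18.5 to 25.9 CPM in control tails and at 10.6 to 18.2 CPM in *nr4A(RNAi)* tails, and at 24.8 to 28.8 against 12 to 20.8 CPM in heads, without overlap in either tissue. Its difference passed the test in tails at week 5 (log2 -0.63 ± 0.11 SE, n = 3 and 3 libraries, edgeR adjusted p = 0.0028) and in heads at week 3 (-0.49 ± 0.07, adjusted p = 0.00016). *Wnt11-2*, a tail marker, was at 35.1 to 57.5 CPM in tails and at 0 to 0.316 CPM in heads, so the tail pieces held the tail marker and the head pieces all but lacked it. In the contigs described here the *nr4A(RNAi)* tail library 1 of week 2 stood apart from its group, as did the *nr4A(RNAi)* head libraries 2 of weeks 2 and 4, and the 3 *nr4A(RNAi)* heads of week 5 lay far from each other. The timing in the tail and the head medians are therefore given with and without such libraries, a choice made after the values were seen.

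The mean tail difference of the 100 contigs ran from -0.68 for dd_8738 to -0.20, with a median of -0.26. As folds these are 0.624, 0.869 and 0.832 times the control level. 5 contigs were below -0.5, 12 below -0.4 and 38 below -0.3, so most lay within 0.1 of the limit. In the head their mean difference ran from -0.10 to 0.09, with a median of -0.01, and 54 of the 100 were below 0, against 39.6% of the 5972 contigs with a head difference in that range. The tail median of those 5972 was 0.01.

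The limit is not a gap in the values. Just inside it were dd_943 (-0.209), dd_2143 (-0.206), dd_14209 (-0.205), dd_985 (-0.204) and dd_646 (-0.203). Just outside were dd_736 (-0.202), dd_15216 (-0.202), dd_13484 (-0.201), dd_6562 (-0.2) and dd_7200 (-0.198). A low tail value alone was more often joined by a low head value: of 379 contigs at or below the limit in the tail, 251 had a mean head difference under -0.1, the 100 lay within 0.1 of 0 and 28 were above 0.1.

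**Figure D1:**
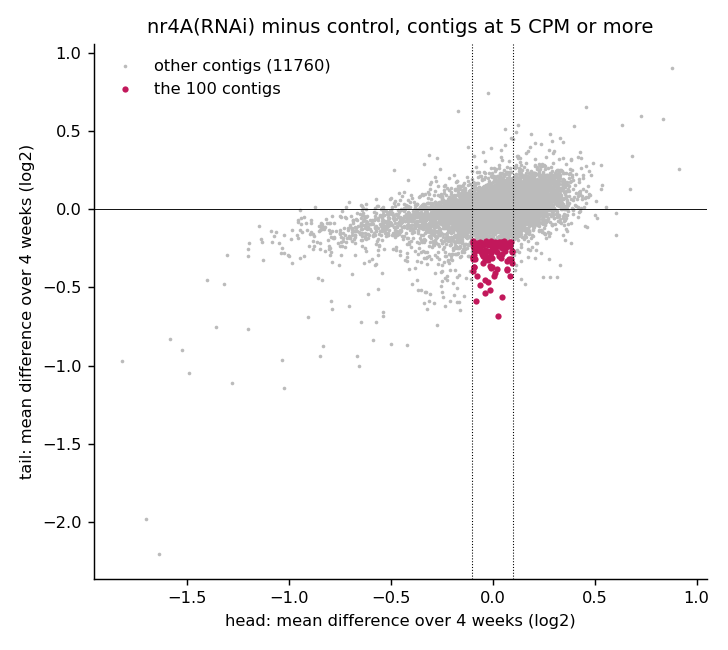
Mean difference between *nr4A(RNAi)* and control libraries over 4 weeks (log2) in the head (x axis) and the tail (y axis), 1 point for each of the contigs at 5 CPM or more in both tissues, with the 100 contigs in colour and dotted lines at head differences of -0.1 and 0.1. The 100 sit at the lower edge of the cloud between the dotted lines, from -0.20 down to -0.68, and the cloud has no gap at their upper limit.

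Few of the contigs have a name. The tables give contig numbers, and names or list entries were found for 2 of the 100 in the gene lists of the study and for 3 more in its tail expression map. dd_11500 matches human *IRX2*, a transcription factor of the Iroquois homeobox family, and was listed as enriched in *nr4A*-positive muscle cells. dd_29263 carries no name and was listed as enriched at the anterior pole. dd_3686, dd_2850 and dd_14989 (*opcml*) are drawn in the tail map. The study made that map of genes it called changed after *nr4A* RNAi in these same libraries. The human gene *OPCML* encodes a cell adhesion molecule of the immunoglobulin superfamily that is anchored to the cell surface. Of the others nothing can be said about function here.

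dd_8738 had the lowest mean tail difference. In control tails it was at 20.4, 20 and 19.9 CPM in week 2, 23.9, 21.4 and 19.7 in week 3, 21.0, 21.8 and 25.7 in week 4 and 20.8, 18.6 and 18.2 in week 5. In *nr4A(RNAi)* tails it was at 17.6, 13.4 and 13.6 CPM in week 2, 12.8, 12.1 and 13.8 in week 3, 12.9, 12.1 and 15.7 in week 4 and 11.7, 10.7 and 9.56 in week 5. All 3 *nr4A(RNAi)* libraries lay below all 3 controls in every week, and the weekly differences on the log2(CPM + 0.5) scale were -0.44, -0.73, -0.73 and -0.82. In heads the groups overlapped in every week, and the week 5 head difference was 0.19, with 26.9 to 30.8 CPM in controls and 30.3 to 36.3 CPM in *nr4A(RNAi)* heads.

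dd_3686 and dd_2850 were lowered together and by like amounts. dd_3686 was at 84.3, 103 and 88.9 CPM in week 2 control tails and at 97.4, 71.0 and 62.1 in *nr4A(RNAi)* tails, where library 1 lay among the controls. In week 5 the controls were at 109, 99.1 and 97.9 CPM and the *nr4A(RNAi)* tails at 56.5, 63.1 and 67.0. Its weekly tail differences were -0.28, -0.61, -0.76 and -0.71, and the groups did not overlap from week 3 on. Its head differences were -0.11, -0.04, 0.01 and -0.19, and in 1 head week the *nr4A(RNAi)* libraries all lay below the controls.

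dd_2850 went from 162, 194 and 167 CPM in control tails against 162, 127 and 125 CPM in week 2 to 215, 205 and 218 against 119, 137 and 146 CPM in week 5. In week 2 its library 1 equalled the lowest control to 3 digits, and from week 3 on the groups were clearly apart, with weekly differences of -0.34, -0.57, -0.68 and -0.67. In week 5 heads it was at 105 to 117 CPM in controls and at 87.4 to 110 CPM in *nr4A(RNAi)* libraries, which overlapped, with a difference of -0.17.

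dd_14989 (*opcml*) is a low contig. Its week 2 tails were at 6.82, 7.29 and 6.03 CPM in controls and 4.90, 6.12 and 5.64 CPM after *nr4A* RNAi, and its week 5 tails at 5.61, 6.58 and 6.50 against 3.32, 3.07 and 5.00 CPM. The groups overlapped in week 2 only, and the tail differences were -0.25, -0.48, -0.74 and -0.67. Its heads stayed between 9.01 and 13.3 CPM in both groups, above every tail library.

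**Figure D2:**
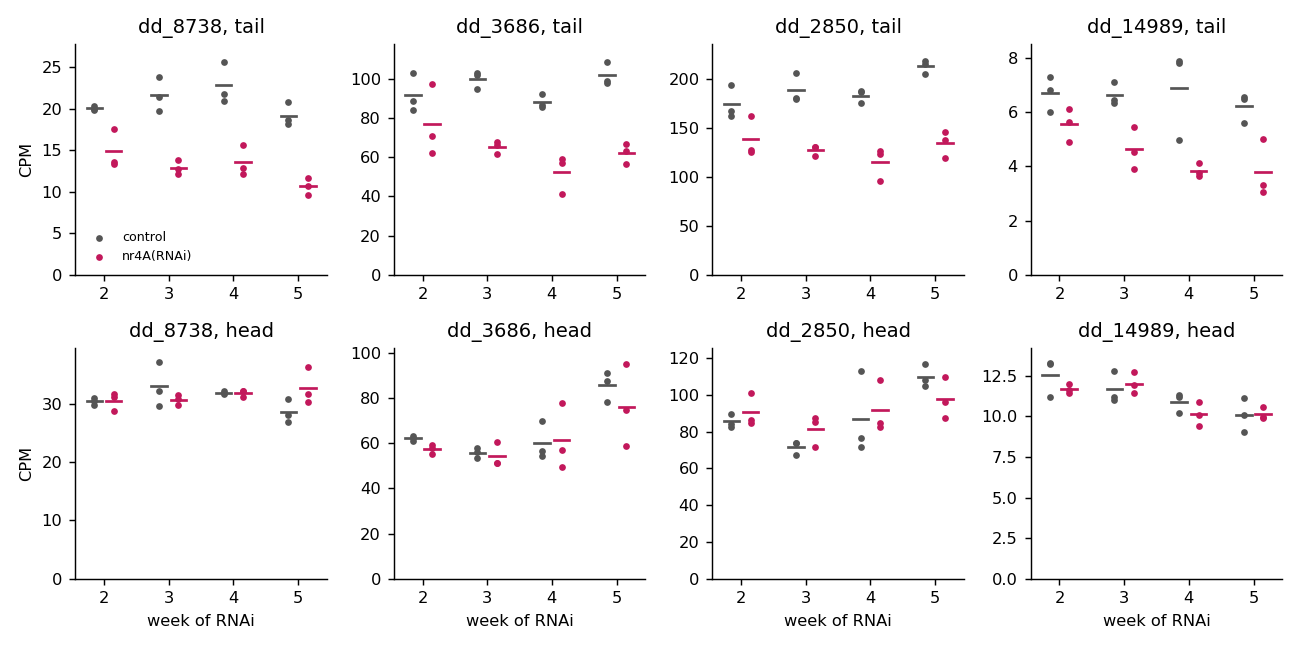
CPM in each library (points) and group means (bars) by week of RNAi for the 4 contigs with the lowest mean tail difference, tails above and heads below, controls in grey and *nr4A(RNAi)* in colour. From week 3 on the 3 *nr4A(RNAi)* tails of all 4 contigs lie under the 3 controls, while the head groups overlap in most weeks.

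dd_13858 differed from these 4 in its timing. Its tail differences were -0.52, -0.51, -0.50 and -0.55, so it was as low in week 2 as in week 5. The week 2 tails were at 12.2, 14.3 and 14.6 CPM in controls and 10.9, 7.93 and 9.45 CPM after *nr4A* RNAi, and those of week 5 at 13.6, 11.8 and 12.9 against 8.94, 8.42 and 8.36 CPM. It was 1 of the 11 contigs whose groups did not overlap in any of the 4 tail weeks.

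dd_11500 (*IRX2*) was likewise steady from week to week, at a smaller size. Its control tails were at 17.3, 18.3 and 17.0 CPM in week 2 and its *nr4A(RNAi)* tails at 13.8, 12.2 and 14, and in week 5 the values were 18.8, 18.8 and 17.1 against 15.9, 12.9 and 14 CPM. The tail differences were -0.38, -0.28, -0.30 and -0.35, with no overlap in any week. In heads it lay between 18.9 and 25.6 CPM over both groups, and the largest weekly head difference was -0.10.

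dd_10820 and dd_873 moved stepwise in the tail, and their mean head differences, -0.08 and -0.1, lay near the lower limit of the head range. The head differences of dd_873 were below 0 in every week, at -0.01, -0.09, -0.14 and -0.15. The head differences of dd_10820 were -0.02, -0.17, 0.03 and -0.14. The tail differences of dd_10820 were -0.16, -0.41, -0.42 and -0.72, and in week 5 the controls were at 15.2, 16.7 and 16.2 CPM against 9.52, 9.01 and 10.1 CPM. Those of dd_873 were -0.08, -0.40, -0.44 and -0.65, with 341, 368 and 319 CPM in week 5 controls and 238, 207 and 210 CPM after *nr4A* RNAi. 12 of the 100 contigs had a lower tail difference at every step from week 2 to week 5, and 9 did without the *nr4A(RNAi)* tail library 1 of week 2.

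The remaining contigs among the 20 lowest had mean tail differences from -0.48 to -0.37: dd_10685 (-0.48), dd_14187 (-0.46), dd_115 (-0.45), dd_132 (-0.43), dd_1175 (-0.42), dd_15988 (-0.41), dd_34919 (-0.39), dd_16493 (-0.38), dd_1206 (-0.38), dd_29263 (-0.38), dd_10691 (-0.37), dd_15144 (-0.37) and dd_1213 (-0.37). dd_29263, the anterior pole contig, was at 4.31, 6.40 and 5.31 CPM in week 5 control tails and at 3.36, 4.24 and 2.76 CPM after *nr4A* RNAi, and the groups overlapped in weeks 2 and 3. Its heads held 13.1 to 17.8 CPM in controls and 10.4 to 18.7 CPM in *nr4A(RNAi)* libraries, and the week 3 head difference was 0.24.

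Over all 100 contigs the median tail difference was closest to 0 in week 2, and how far it stood off from the later weeks depended on 1 library. The median tail difference was -0.16 in week 2, -0.31 in week 3, -0.32 in week 4 and -0.36 in week 5, and without the *nr4A(RNAi)* tail library 1 of week 2 the week 2 median was -0.28. With all libraries these are 0.893, 0.807, 0.801 and 0.778 times the control level. The medians of the 5972 contigs were -0.01, 0.02, 0.01 and 0.04 in the same weeks. The number of contigs below -0.5 went 4, 10, 16 and 22, and the number below 0 went 86, 100, 99 and 98. Without that library the week 2 numbers were 12 and 96.

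The lowest week of a contig was week 5 for 40 of the 100, week 4 for 30, week 3 for 19 and week 2 for 11, whereas among the 5972 contigs week 2 was lowest in 42.5% and week 5 in 18.4%. Without the week 2 library the numbers were 32, 27, 13 and 28, and week 2 was lowest in 28% of the 5972. The highest tail difference was in week 2 for 69 contigs, or for 39 without that library. The difference was lower in week 3 than in week 2 in 77 contigs, or in 62 without that library, while the later steps were nearly even, with 54 lower in week 4 than in week 3 and 55 lower in week 5 than in week 4. 83 contigs were below 0 in all 4 tail weeks and 17 in 3 of them, against 6.18% and 22.1% of the 5972, and 93 were below 0 in all 4 without it.

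**Figure D3:**
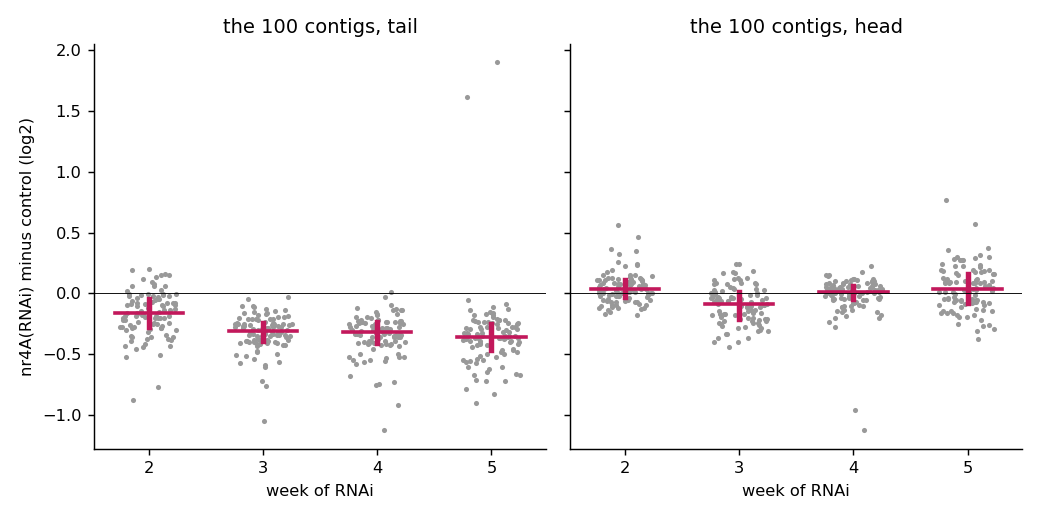
Difference between *nr4A(RNAi)* and control means (log2) of each of the 100 contigs (points) by week of RNAi, with the median (horizontal bar) and quartiles (vertical bar), in the tail (left) and the head (right). Tail medians go from -0.16 to -0.36, 2 contigs are high in the tail in week 5, and the head median is below 0 in week 3 only.

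Counted by libraries, the 3 *nr4A(RNAi)* tails lay below the 3 controls in 19 contigs in week 2, 55 in week 3, 57 in week 4 and 85 in week 5. Of the 11860 contigs at 5 CPM or more, 3.12%, 6.62%, 5.46% and 10.6% did so in those weeks. In week 2, libraries 2 and 3 alone lay below the 3 controls in 59 contigs, beside 12% of the 11860. 11 contigs were apart in all 4 weeks, 29 in 3, 31 in 2, 23 in 1 and 6 in none, while 81.6% of the 11860 were apart in none.

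By edgeR's quasi-likelihood test at an adjusted p of 0.05 over all contigs tested, none of the 100 passed in the tail at week 2, where 0.0% of all contigs were called lower. 9 were lower at an unadjusted p under 0.05, beside 0.621% of all contigs, and DESeq2 called 0, while 8 passed in edgeR without *nr4A(RNAi)* replicate 1. At week 3, 2 contigs were called lower beside 0.128% of all contigs, and at week 4, 4 were called beside 0.31%. The week 3 calls were dd_3686 (-0.65 ± 0.07 SE, adjusted p = 0.015) and dd_2850 (-0.60 ± 0.08, adjusted p = 0.023). Both were called again at week 4, with dd_8738 (-0.75 ± 0.12, adjusted p = 0.021) and dd_5999 (-0.43 ± 0.07, adjusted p = 0.032). dd_5999 was at 74.9, 71.3 and 76.9 CPM in week 4 control tails and at 52.5, 58.4 and 55.6 CPM after *nr4A* RNAi. The counts of both weeks rested on single libraries. At week 3, 19 were called without control replicate 1 and 0 without control replicate 3 or any *nr4A(RNAi)* replicate. At week 4, 19 were called without *nr4A(RNAi)* replicate 1 and 0 without any of the control replicates. The shares of all contigs called by DESeq2 or with a replicate left out are not given here.

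At week 5, 77 of the 100 were called lower, beside 5.63% of all contigs, and the 4 earlier calls were among them. In a fit of all 24 tail libraries, which share 1 estimate of the spread, the 77 became 19. The share of all contigs called in that fit is not given here. The lowest were dd_115 (-0.95 ± 0.11, adjusted p = 0.00015), dd_8738 (-0.90 ± 0.10, adjusted p = 0.00011) and dd_132 (-0.85 ± 0.10, adjusted p = 0.00018). dd_11500 (*IRX2*) was called at -0.41 ± 0.09 (adjusted p = 0.015), dd_29263 at -0.67 ± 0.18 (adjusted p = 0.03) and dd_14989 (*opcml*) at -0.83 ± 0.16 (adjusted p = 0.0059). The rise of the calls from 4 to 77 came with a fall in the spread between libraries: the biological coefficient of variation of the fit was 23.6% in week 2, 11.7% in week 3, 10.5% in week 4 and 6.66% in week 5. From week 4 to week 5 the median fitted difference of the 100 went from -0.33 to -0.42. 23 contigs were called lower in no tail week.

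Whether the tail difference itself changed from week 2 to week 5 was tested in the 24 tail libraries. None of the 100 passed in either direction, beside 0.051% of all contigs lower and 0.0051% higher, and the smallest adjusted p was 0.19. At an unadjusted p under 0.05, 32 were lower, beside 5.3% of all contigs, and 3 higher, beside 3.5%, and DESeq2 called 2 lower and 0 higher. The fitted change had a median of -0.38 over the 100, with 90 below 0, against a median of 0.01 over all contigs. Without the *nr4A(RNAi)* tail library 1 of week 2 the median change was -0.10. By edgeR a further decrease from week 2 to week 5 was thus not detectable in any single contig at this spread, and the median of the change rested largely on 1 library.

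That library stood apart in the contigs themselves. Measured from the control mean of its week, the median over the 100 was 0.04 in *nr4A(RNAi)* tail library 1 of week 2 and -0.21 and -0.27 in libraries 2 and 3. In the 9 *nr4A(RNAi)* tails of weeks 3 to 5 the medians were -0.22 to -0.40, and in the 12 control tails they were -0.10 to 0.14. Thus 11 of the 12 *nr4A(RNAi)* tails had a median below every control tail. The contigs were chosen for low values in these same libraries, so this order is a description only.

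**Figure D4:**
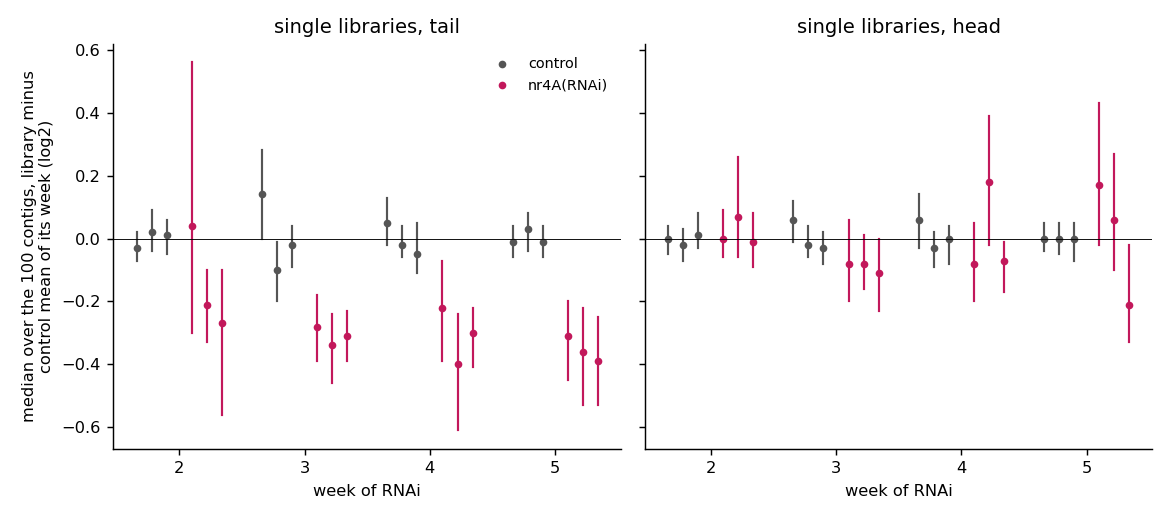
Median over the 100 contigs of the difference between a library and the control mean of its week (log2, points) with the quartiles over contigs (lines), for each library of tail (left) and head (right) by week of RNAi, controls in grey and *nr4A(RNAi)* in colour. All *nr4A(RNAi)* tails but library 1 of week 2 lie at -0.21 or lower, and the *nr4A(RNAi)* heads of weeks 4 and 5 lie on both sides of 0.

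31 of the 100 contigs were more than 0.5 above the control mean in that library, against 6.95% of the 5972. They were picked after their values were seen and are described without a test. Their median was 0.65 there, -0.09 in library 2 and -0.65 in library 3 of the same group, while the other 69 contigs had -0.13, -0.27 and -0.21. Their weekly tail medians were -0.02, -0.32, -0.28 and -0.38, and those of the other 69 were -0.22, -0.29, -0.34 and -0.35. In week 2 the 31 were near 0 as a set, and from week 3 on both sets had like medians.

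The same 31 varied in the head. Their head medians were 0.53 in *nr4A(RNAi)* library 1 of week 5, 0.36 in library 2 and -0.32 in library 3, against 0.02, -0.03 and -0.14 for the other 69. In *nr4A(RNAi)* head library 2 of week 4 they were at 0.42 against 0.09, and in control tail library 1 of week 3 at 0.29 against 0.04. 24 contigs were more than 0.5 above the control mean in head library 1 of week 5. Of these, 18 were among the 31, which is 75% of the 24 and 58.1% of the 31. The share of all contigs that high in this head library is not given here, so nothing is read from the 24 or the 18.

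dd_115 and dd_132 show this pattern at high level. dd_115 was at 375, 441 and 370 CPM in week 2 control tails and at 706, 347 and 238 CPM in the *nr4A(RNAi)* tails, the highest and the lowest values both being in the *nr4A(RNAi)* group. In week 5 the groups were apart, at 659, 588 and 683 against 374, 388 and 279 CPM, and the tail difference was -0.90, the lowest of the 100 in that week. In week 5 heads it was at 387, 444 and 284 CPM in controls and at 480, 499 and 245 CPM in *nr4A(RNAi)* libraries. dd_132 was at 266, 303 and 262 against 466, 256 and 144 CPM in week 2 tails and at 438, 400 and 477 against 281, 269 and 213 CPM in week 5 tails, with a week 5 difference of -0.79.

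dd_4 and dd_7 are the exceptions to the timing. dd_4 was the lowest of the 100 in weeks 2, 3 and 4, at -0.87, -1.05 and -1.13, with dd_7 next at -0.77, -0.76 and -0.92. In week 5 both were higher after *nr4A* RNAi, by 1.90 and 1.62. The control tails of dd_4 were at 1875, 7040 and 3993 CPM in week 2, 3459, 2051 and 761 in week 3, 4271, 2281 and 599 in week 4 and 507, 451 and 519 in week 5. The *nr4A(RNAi)* tails were at 1414, 2297 and 2636, then 1828, 519 and 638, then 1379, 697 and 584, and in week 5 at 2061, 2447 and 1231 CPM.

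The groups of dd_4 overlapped in weeks 2, 3 and 4 and were apart only in week 5, when the *nr4A(RNAi)* tails were above the controls. dd_7 followed it, with 303, 301 and 316 CPM in week 5 control tails and 987, 1244 and 678 CPM after *nr4A* RNAi. They were the only 2 of the 100 called higher in week 5 tails, beside 4.25% of all contigs, at 1.89 ± 0.18 (adjusted p = 4e-05) for dd_4 and 1.60 ± 0.15 (adjusted p = 4.3e-05) for dd_7. Their mean tail difference over the 4 weeks met the rule, while week 5 went against it. In heads the differences of dd_4 in weeks 2 to 5 were 0.559, -0.021, -1.128 and 0.767. Those of dd_7 were 0.466, 0.051, -0.963 and 0.575. Their mean head differences near 0 thus came from large weekly differences of opposite sign.

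**Figure D5:**
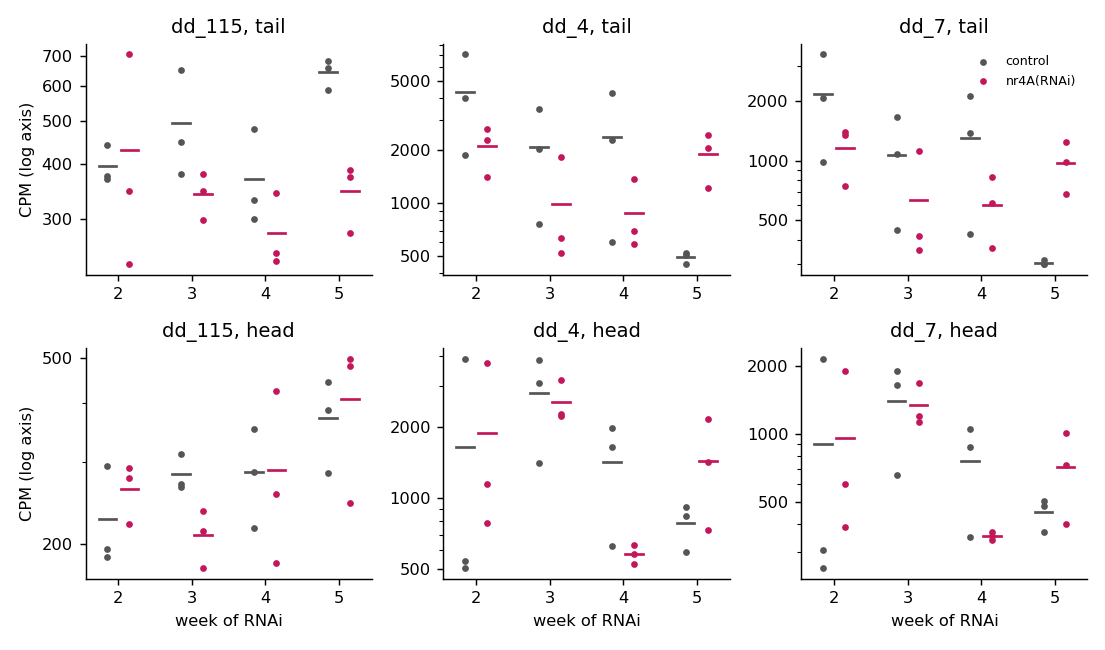
CPM (log axis) in each library (points) and group means (bars) by week of RNAi for dd_115, dd_4 and dd_7, tails above and heads below, controls in grey and *nr4A(RNAi)* in colour. In dd_115 the *nr4A(RNAi)* tails of week 2 span 238 to 706 CPM, and in dd_4 and dd_7 the *nr4A(RNAi)* tails exceed the controls in week 5 only.

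The 100 contigs were more variable between libraries than most. The residual SD of log2(CPM + 0.5) within the tail groups had a median of 0.18 and ran from 0.04 for dd_4420 to 0.87 for dd_4, against a median of 0.12 over the 5972, and 86 of the 100 were above that median. As a description, the mean tail difference was more than 2 standard errors below 0 in 84 contigs and more than 3 in 58. The contigs were chosen for a low value of that same mean, so these counts support nothing about them. The steadiest, dd_4420, was at 146, 151 and 154 CPM in week 2 control tails and at 128, 127 and 125 CPM after *nr4A* RNAi, and its tail differences were -0.24, -0.19, -0.19 and -0.24. Small differences with a narrow spread and larger ones with a wide spread thus both stand in the list.

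How far the choice carries to libraries it did not use was examined by leaving out the libraries of 1 replicate number, choosing 100 contigs from the rest and reading the tail difference in the libraries left out. With replicates 1, 2 and 3 left out in turn, 68, 51 and 64 of those chosen were among the 100 described here. In replicate 3 the median was -0.25 with 91 of 100 below 0, and in replicate 2 it was -0.24 with 87 below 0. In replicate 1 it was -0.13 with 72 below 0, and -0.06 with library sizes scaled by TMM. The contigs that met the level and head limits of the same choice had medians of 0.02, 0.03 and 0.00, with 40.7%, 36.9% and 51.3% below 0. The median in the libraries used for the choice was -0.25, -0.26 and -0.32. The weekly medians in replicate 1 were 0.40, -0.40, -0.16 and -0.28, so the exception again was week 2. The nearness of the head to the control level carried over less well: 63, 33 and 35 of 100 were within 0.1 in the head of the replicates 1, 2 and 3 left out.

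In the head the label of an effect in the tail alone was met on average but not in each week. The head medians of the 100 were 0.04, -0.09, 0.01 and 0.03 in weeks 2 to 5. In week 3, 73 contigs were below 0, and in 32 the 3 *nr4A(RNAi)* heads lay below the 3 controls, beside 10.6% of the 11860 contigs. In weeks 2, 4 and 5 this held for 6, 2 and 5 contigs, beside 4.6%, 5.62% and 6.8%, so near or under the share of all contigs. The tail difference was below the head difference in every week in 76 contigs. They are therefore described as contigs with a low mean tail difference and a mean head difference near 0.

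By edgeR, 26 of the 100 were called lower in week 3 heads, beside 3.65% of all contigs, and 0 were called higher, beside 1.6%, with 4 higher at an unadjusted p under 0.05, beside 8.65% of all contigs, and 0 by DESeq2. Without control replicate 1 the 26 became 11, and without control replicate 2 they became 15. In a fit of all 24 head libraries none of the 26 passed. The shares of all contigs called in these other fits are not given here. The strongest were dd_115 (-0.47 ± 0.08 SE, adjusted p = 0.0013), dd_132 (-0.42 ± 0.07, adjusted p = 0.0011) and dd_726 (-0.37 ± 0.06, adjusted p = 0.00093). In that week dd_115 was at 312, 264 and 269 CPM in control heads and at 235, 177 and 213 CPM in *nr4A(RNAi)* heads. All 26 were also among the 77 called lower in week 5 tails, which is 33.8% of the 77. The week 3 head fit had the narrowest spread, a biological coefficient of variation of 4.73%, against 12.6% in week 2, 14.9% in week 4 and 27.5% in week 5.

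The 26 had head medians of 0.07, -0.24, 0.02 and 0.13, and the other 74 had 0.03, -0.04, 0.01 and 0.02. A low week 3 value was thus offset by higher values in weeks 2 and 5 in the mean that the rule used. The rule kept only mean head differences within 0.1 of 0, so contigs as low in every head week were left out by the choice. 20 of the 26 were among the 31 contigs that were high in the *nr4A(RNAi)* tail library 1 of week 2, which is 76.9% of the 26 and 64.5% of the 31.

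None of the 100 was called in the head in weeks 2, 4 or 5. Of all contigs tested in the head, 0.0% were called lower and 0.0% higher at week 2, 0.049% and 0.0% at week 4 and 0.0111% and 0.0% at week 5. At an unadjusted p under 0.05, 0, 3 and 3 of the 100 were lower in those weeks, beside 1.47%, 2.77% and 4.38% of all contigs, and 1, 0 and 0 were higher, beside 1.37%, 5.09% and 11.4%. DESeq2 called 2 lower at week 5 and none otherwise. Without *nr4A(RNAi)* replicate 2, 10 were called lower at week 4. Without *nr4A(RNAi)* replicate 3, 29 were called higher and 9 lower at week 5. The shares of all contigs called in those fits are not given here, so nothing about the 100 is read from these counts. The change of the head difference from week 2 to week 5 passed in none of the 100, beside 0.224% of all contigs lower and 0.0459% higher, with a smallest adjusted p of 0.16. There, 4 were lower at an unadjusted p under 0.05, beside 5.08% of all contigs, and DESeq2 called 1 lower.

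The *nr4A(RNAi)* heads of weeks 4 and 5 differed among themselves. In week 4 the median of the 100 was 0.18 in library 2 and -0.08 and -0.07 in libraries 1 and 3, and in week 5 it was 0.17, 0.06 and -0.21. Without library 2 of weeks 2 and 4 and libraries 1 and 3 of week 5, a setting chosen after the values were seen, the head medians were 0.00, -0.09, -0.09 and 0.06. The week 5 value then is that of library 2 alone, 1 library without a replicate. In week 4, 77 contigs were then below 0 in place of 41. 79 of the 100 still had a mean head difference within 0.1 of 0, 18 were below -0.1 and 3 above 0.1.

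The contigs are not tail genes as a group, though in controls a larger share was called higher in the tail than among all contigs. Control libraries enter the rule, so levels in the controls of both tissues are given as a description. The log2 ratio of control tail to control head had a median of 0.05, from -2.39 to 2.22, against -0.04 for the 11860 contigs. 9 contigs were more than 1 higher in the tail and 8 more than 1 higher in the head. In the fit over control libraries, 33 were lower in the tail, beside 35.4% of all contigs, and 51 higher, beside 37.1%. In *nr4A(RNAi)* libraries, 55 were lower in the tail, beside 33.4%, and 19 higher, beside 23.9%. The rule took contigs low in *nr4A(RNAi)* tails and near control in heads, so this shift from the controls follows from the choice.

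At the tail end of that range stood dd_564, with a median of 115 CPM in control tails (78.0 to 164) and of 23.9 CPM in control heads (17.9 to 33.3). At the head end stood dd_15988, with 6.14 CPM (5.31 to 8.04) in control tails and 33.5 CPM (28.7 to 37.8) in control heads. Both were lowered in *nr4A(RNAi)* tails by week 5, dd_564 from 133, 108 and 121 to 98.0, 74.9 and 77.0 CPM and dd_15988 from 6.26, 6.72 and 5.89 to 3.90, 3.90 and 3.96 CPM. In the same week dd_15988 was at 29.9, 28.7 and 31.6 CPM in control heads and 29.1, 31.3 and 32.8 CPM in *nr4A(RNAi)* heads.

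The weekly differences rest on controls that moved too. In control tails, 10 of the 100 were higher at week 5 than at week 2, beside 1.16% of all contigs, and 2 were lower, beside 0.422%. The lower ones were dd_4 (-3.06 ± 0.64 SE, adjusted p = 0.029) and dd_7 (-2.75 ± 0.56, adjusted p = 0.024). The higher ones ran from dd_5447 (0.28) to dd_267 (0.77 ± 0.16, adjusted p = 0.025), and included dd_8747 (0.65 ± 0.09, adjusted p = 0.002), dd_2850 (0.36 ± 0.08, adjusted p = 0.031), dd_646 (0.39), dd_11710 (0.45), dd_10142 (0.46), dd_10691 (0.47), dd_13524 (0.56) and dd_4128 (0.58). Without control replicate 2 or control replicate 3 none of the 12 passed. In dd_8747 the control tails were at 16.2, 15.4 and 18.4 CPM in week 2 and 23.8, 27.5 and 23.3 CPM in week 5. The comparisons of a week share these controls with the change from week 2 to week 5.

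The 100 contigs are 1.67% of the 5972 with a head difference near 0, and the study's muscle and pole lists were counted beside that share. 1 of the 40 anterior pole contigs with a head difference near 0 was among them (2.5%), dd_29263. Of 73 posterior pole contigs in that range none was, and of 273 contigs enriched in *nr4A*-positive muscle 1 was (0.366%), dd_11500. With 0 or 1 contig from a list, nothing particular can be read from these shares. All 11 collagen contigs, which encode matrix proteins that planarian muscle secretes, lay outside the head range, with median mean differences of -0.18 in the tail and -0.41 in the head. The 11 contigs for contractile proteins had medians of 0.01 and -0.09, and none was among the 100. In week 5 tails, 5.63% of all contigs tested were called lower and 4.25% higher. Beside that, 12 of 190 anterior pole contigs tested were called lower and 16 higher. Of 183 posterior pole contigs, 4 were lower and 9 higher, and of 574 contigs of *nr4A*-positive muscle, 44 were lower and 22 higher. Whether the lists differ from all contigs was not tested.

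Markers of cell types were read in the same tail libraries. The summed level of 18 muscle markers was 19233 to 25170 CPM in control tails and 16379 to 22594 CPM in *nr4A(RNAi)* tails. The median of their mean differences was -0.15 in the tail and -0.39 in the head. By week their tail medians were -0.03, -0.09, -0.26 and -0.2. Of the 18, 2 were called lower in week 5 tails, beside 5.63% of all contigs. The sum of 2 neuron markers was 201 to 244 against 213 to 254 CPM. dd_950, expressed in epidermis, was at 144 to 521 CPM in control tails and 73.2 to 251 CPM in *nr4A(RNAi)* tails, a mean tail difference of -1.0. The paper reports dd_950 among the genes that *nr4A* RNAi reduced in head and tail, so its level need not follow the number of epidermal cells. The part of these shifts in the lowering of the 100 was not tested. In pieces of whole tissue, fewer cells of a type and less RNA in each cell cannot be told apart.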

How the data were processed

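The authors trimmed reads with Trimmomatic 0.32, after base calling with CASAVA 1.7.0, and mapped them with bowtie to the dd_Smed_v4 transcriptome of assembled contigs, so contigs are the unit and no genome coordinates apply. They deposited raw counts of reads per contig for 24 head and 24 tail libraries. The comparison tables that the authors made with DESeq (group means, ratios and p-values for each week) were not used. The head table writes the target as nr4A1 and the tail table as nr4A, and both were read as *nr4A*.

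Counts were summed by contig number. 4 rows of the head table that are not contigs, with 12.4% to 18.8% of a library's counts, were dropped. The tail table lists isoforms apart, and 16 of the 100 contigs had more than 1 row there. CPM, and log2(CPM + 0.5), were computed from these sums. CPM is not scaled to length, so levels of different contigs are not compared.

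Tests used edgeR 4.0.16 (R 4.3.3) with TMM, filterByExpr (minimum count 10, minimum total 15), the quasi-likelihood F test, two-sided, and Benjamini-Hochberg adjustment over all contigs tested. Weekly fits held 6 libraries, changes between weeks 24. Alternatives used DESeq2 1.42.0, other size factors, no filter, a replicate block, and omitted libraries. 4 of the comparisons were tested on simulated data with changes of 1 (log2), larger than any mean tail difference of the 100. Of the changed contigs, 66.7% were recovered for week 3 tails and 48.2% for the change from week 2 to week 5 in tails. For control tails against heads it was 96.9%, and for control tails over the weeks 77.8%. Smaller changes were not simulated. Differences in the plots and weekly medians are of group means, not fitted values.

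The contigs, the lists and the tests were chosen with earlier results of these data known. Named contigs are the 20 lowest in the tail, those named in the lists or maps of the study, 5 on either side of the limit, the 3 lowest in each week, and those past the threshold in changes between weeks. Others (dd_4420, dd_5999, dd_564, dd_726, and those kept by the rule under every setting) were named after their values were seen.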

Additional observations from a re-analysis of the deposited data

How the results depend on the processing

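Of the medians and single-contig differences recomputed under other settings, 1 changed sign: the head median of week 4, from 0.01 to -0.09 without 4 *nr4A(RNAi)* head libraries. The week 2 tail median was -0.28 in place of -0.16 without 1 library, and with it the timing in the tail moved. Counts of the 100 contigs called lower in the tail were least steady in weeks 3 and 4. At week 3 the 2 calls became 11 with DESeq2, 5 in a fit of all 24 libraries and 1 with the replicate block, and 0 to 19 with 1 replicate left out, with 19 without control replicate 1 and 0 without control replicate 3 or any *nr4A(RNAi)* replicate. At week 4 the 4 calls became 10 with DESeq2, 7 in the 24-library fit and 0 to 19 with 1 replicate left out, with 19 without *nr4A(RNAi)* replicate 1 and 0 without any control replicate. At week 5 the 77 calls became 19 in the 24-library fit. At week 2, 0 to 8 were called with 1 replicate left out, the 8 without *nr4A(RNAi)* replicate 1.

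In heads, the 26 calls of week 3 became 0 in the 24-library fit and 11 to 26 with 1 replicate left out, 11 without control replicate 1 and 15 without control replicate 2, and 0 to 1 were higher. At week 4, 0 to 10 were lower, the 10 without *nr4A(RNAi)* replicate 2. At week 5, DESeq2 called 2 lower and the 24-library fit 4, and leaving out 1 replicate gave 0 to 9 lower and 0 to 29 higher, the 9 and the 29 both without *nr4A(RNAi)* replicate 3. The change from week 2 to week 5 had 2 lower in the tail and 1 in the head with DESeq2, and 0 to 3 higher in the head without 1 replicate. In control tails, week 5 against week 2 gave 0 to 2 lower and 0 to 18 higher without 1 replicate. The median change of the tail difference was -0.18 without *nr4A(RNAi)* replicate 1 and -0.10 without its week 2 library alone, a setting added after the data were seen, against -0.38. The cause was not tested in any of these. The shares of all contigs called under these settings are not given, so the counts describe only how steady the calls were.

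The replicate numbers did not pair the samples as a whole: 11 of 24 pairs of same-numbered libraries had a correlation over 0.1 (-0.36 to 0.38) and 13 correlated best with their own number. In 1 of the 8 comparisons, week 2 heads, all 3 pairs were over 0.1 and best with their own number, and there 0 contigs were called with the replicate block, as without it. With the replicate block, 83 contigs were called lower in week 5 tails, the 2 calls of week 3 tails became 1, and no other count moved by over 1.5 times. dd_10142 did not pass in control tails with the block.

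The rule itself gave 54 of the 100 again with a head range of 0.05 and 55 with 0.2, 63 without week 2, 66 without week 3, 63 without week 5, and 46 to 81 without 1 replicate, the 46 without *nr4A(RNAi)* replicate 2, and 88 without the week 3 library of control tail replicate 1 alone. 8 contigs, dd_8738, dd_13858, dd_10691, dd_626, dd_11500, dd_5447, dd_9001 and dd_7441, came back under all 21 settings of the rule. The median tail difference was -0.31 without week 2 and -0.34 to -0.24 with 1 replicate left out, the -0.34 without *nr4A(RNAi)* replicate 1. Scaled by TMM, the week 5 median was -0.43 and the median in the omitted replicate 1 was -0.06. With 3 libraries a group, contigs near 5 CPM and differences near 0.2 are at the limit of what these libraries resolve.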
